A study of Mus musculus with 11 samples.

Results

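Transcripts of 8 genes that carry, store, export and sense iron were followed across the cell classes of the mouse brain and across 4 dosing groups: Tfrc, Trf, Slc11a2, Fth1, Ftl1, Slc40a1, Ireb2 and Aco1. The 8 genes are a list of symbols drawn up with earlier results of these data known, no measured value enters the rule, and all 8 are among the 25938 gene symbols of the deposited count table. The data are single-nucleus RNA counts from 11 libraries with 110304 nuclei in all, with each nucleus assigned by the authors to 1 of 10 predicted classes. Counts of UMIs (unique molecular identifiers, 1 per captured RNA molecule) were summed per library and class, and levels are given as CPM, UMIs of a gene per 1e+06 UMIs of that sum. Every mouse carried 2 copies of a knock-in of human TfR, the transferrin receptor (hTfR KI HOM in the labels), and no group without dosing was among the samples.

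The mice received 4 weekly intravenous doses, and tissue was collected 72 h after the last. In 2 groups the molecule binds the TfR. ATV:BACE1 (n = 3, 57 mg/kg) binds the receptor and carries no oligonucleotide, and OTV:Malat1 (n = 3, 60 mg/kg) binds it and carries an antisense oligonucleotide (ASO) against the nuclear RNA Malat1. In the other groups nothing binds the receptor. nonTV:Malat1 (n = 3, 60 mg/kg) is the conjugate without receptor binding, and Malat1 ASO (n = 2, 2.5 mg/kg) is the free oligonucleotide. Libraries are named by group and by the replicate number of the label. Number 1 was female at 2.33 months, number 4 male at 2.57 months and number 5 male at 2.33 months. The numbers 1, 4 and 5 are also the deposited batches 1, 3 and 4, so that number and batch cannot be told apart. Number 1 also differs from the others in sex, and number 4 in age. The labels give the region as posterior brain and the strain as the human TfR knock-in, while the deposited metadata give cortex and C57BL/6J, and this conflict was not resolved. Counts go to the mouse symbol Tfrc, and whether RNA of the human sequence is counted there is not given in the sources used here.

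Brain cells take up iron bound to transferrin. Transferrin binds the transferrin receptor at the cell surface, the pair is internalised, iron is released in the acid endosome and leaves it through the transporter Slc11a2, and the receptor returns to the surface. At the blood-brain barrier the receptor is dense on capillary endothelium, which is why antibodies and conjugates are built to bind it. Iron not used at once is stored in ferritin, a shell of heavy (Fth1) and light (Ftl1) chains, or exported by ferroportin (Slc40a1). The iron regulatory proteins Aco1 and Ireb2 bind stem-loops called iron-responsive elements when iron is scarce, which protects Tfrc RNA from decay and blocks translation of ferritin and ferroportin RNA.

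The stem-loops are printed because they are the sequences through which the regulatory proteins are known to act. The untranslated regions (UTRs) of the GENCODE M21 annotation of GRCm38 were searched, on the transcript strand only, for a C, 5 bases of any kind and CAGTGN, with the 5 bases before the loop able to pair with the 5 after it (G-U pairs allowed). The capitals mark the 6 bases of the loop, and the bulged C stands 5 bases before it.
Tfrc site 1: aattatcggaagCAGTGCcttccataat
Tfrc site 2: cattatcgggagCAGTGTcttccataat
Tfrc site 3: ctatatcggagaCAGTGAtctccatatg
Tfrc site 4: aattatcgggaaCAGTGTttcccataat
Fth1 site: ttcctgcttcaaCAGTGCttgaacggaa
Ftl1 site: gtcttgcttcaaCAGTGTttgaacggaa
Slc40a1 site: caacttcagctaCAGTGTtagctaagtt
The 4 Tfrc sites lie in the 3′ UTR on the plus strand, at chr16:32631219-32631246, chr16:32631598-32631625, chr16:32631663-32631690 and chr16:32631710-32631737. The other sites lie in 5′ UTRs, for Fth1 at chr19:9982732-9982759 on the plus strand, for Ftl1 at chr7:45459780-45459807 on the minus strand and for Slc40a1 at chr1:45925466-45925493 on the minus strand. Such a match was found in the 5′ UTR of 0.148% of 20916 genes and in the 3′ UTR of 0.613% of 21045 genes. Such a match was not found in the annotated UTRs of Trf, Slc11a2, Ireb2 or Aco1. A Slc11a2 transcript form is known to carry a 3′ element. The absence of a match says only that no stretch had both the letters and the 5 full pairs. An element with an unpaired base in that part of the stem is missed by this search, for Tfrc too. These elements are known to act on RNA decay for Tfrc and on translation for Fth1, Ftl1 and Slc40a1, and only RNA in nuclei was measured here.

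The genes are protein coding. Tfrc (ENSMUSG00000022797.16) spans chr16:32608920-32632794, Fth1 (ENSMUSG00000024661.7) chr19:9980598-9985098 and Slc40a1 (ENSMUSG00000025993.10) chr1:45908068-45926523. Ireb2 (ENSMUSG00000032293.8) spans chr9:54863789-54912530 and Aco1 (ENSMUSG00000028405.9) chr4:40143081-40198338. The other 3 overlap another annotated gene. Trf (ENSMUSG00000032554.15, chr9:103204001-103230444) shares its strand with Gm20425, Ftl1 (ENSMUSG00000050708.16, chr7:45457944-45459884) lies with Gm22133 and Gm10252, and Slc11a2 (ENSMUSG00000023030.16, chr15:100387898-100425072) lies opposite Gm5475. Ferritin genes have near-identical copies in the mouse genome. Beside the 162321 Fth1 and 16444 Ftl1 UMIs, the table holds 2437 UMIs of Ftl1-ps1, and no source used here says how reads shared between copies were assigned.

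The libraries held 33235994 to 43972886 UMIs and 7546 to 13840 nuclei, with a median of 2859 UMIs per nucleus over all nuclei, and 10.4% of nuclei were called doublets and kept. Between 12 and 57 cell barcodes were shared by any pair of libraries (median 26 over 55 pairs, at most 0.551% of the smaller library). Class names were checked against fixed marker lists. Endothelial, leptomeningeal, astrocyte, oligodendrocyte and neuronal markers were highest in the classes so named. The endothelial markers Cldn5 and Flt1 were almost as high in the pericyte class (2159 and 4270 CPM) as in vascular endothelium (2428 and 5579 CPM), while 3 of 4 pericyte markers (Pdgfrb, Abcc9 and Kcnj8) were highest in vascular smooth muscle. The pericyte class thus holds endothelial RNA, although the remaining pericyte marker was highest there. Values of the pair of classes are given side by side. All 7 choroid plexus and ependymal markers were highest in the class called glia, such as Ttr with 3515 CPM.

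The transferrin receptor gene Tfrc was highest in the vascular classes. Its mean level was 283 CPM ± 78.6 in vascular endothelium and 230 ± 59.7 in pericytes (SD, n = 11 libraries), against 34.4 ± 3.88 in neurons. Levels over classes are a description without a test, because the classes were predicted from the same RNA. In each of the 11 libraries the vascular endothelium value lay above the highest neuronal value, as it did for 4 of the 6 members tested in this class and for 43.1% of its 4449 tested genes. Vascular endothelium exceeded pericytes in 9 of 11 libraries, and their ranges overlapped. In vascular smooth muscle, with 16 Tfrc UMIs in all, the mean was 51.0 CPM ± 24.1 over the 8 libraries with at least 20 such nuclei. Neurons came next and exceeded astrocytes (21.6 ± 4.98 CPM) in 10 of 11 libraries. Oligodendrocytes (20.2 ± 5.41), glia (17.0 ± 7.56), microglia (16.3 ± 9.78, 21 UMIs in all) and leptomeningeal cells (15.2 ± 6.22) followed in that order, with overlapping ranges between each neighbouring pair.

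Although Tfrc was densest in vessels, most of its UMIs came from neurons. Neurons held 12349 of the 14170 Tfrc UMIs, or 87.2%, close to their 87.5% share of all UMIs. Vascular endothelium and pericytes held 2.63% and 3.78% of Tfrc UMIs with 0.335% and 0.543% of all UMIs. Among the neuronal clusters of the authors, Tfrc was at 34.8 ± 4.35 CPM in cluster 0, 38.4 ± 3.11 in cluster 1, 28.9 ± 4.55 in cluster 2 and 38.2 ± 8.85 in cluster 9. The vascular order also held per nucleus at equal depth. After each nucleus was thinned to 500 UMIs, 12.04% of 1105 endothelial nuclei and 10.2% of 929 pericyte nuclei kept a Tfrc UMI, against 1.60% of neurons, 1.15% of oligodendrocytes and 0.645% of leptomeningeal nuclei. Without thinning the shares were 23.6%, 34.0%, 14.0%, 2.19% and 2.04%, at median depths of 960.5, 1930.5, 3926, 947 and 1188 UMIs. A share near 1% was found in every class outside vessels and neurons, including microglia (0.936%) and glia (0.787%), so that free RNA and expression cannot be told apart at that level.

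**Figure D1:**
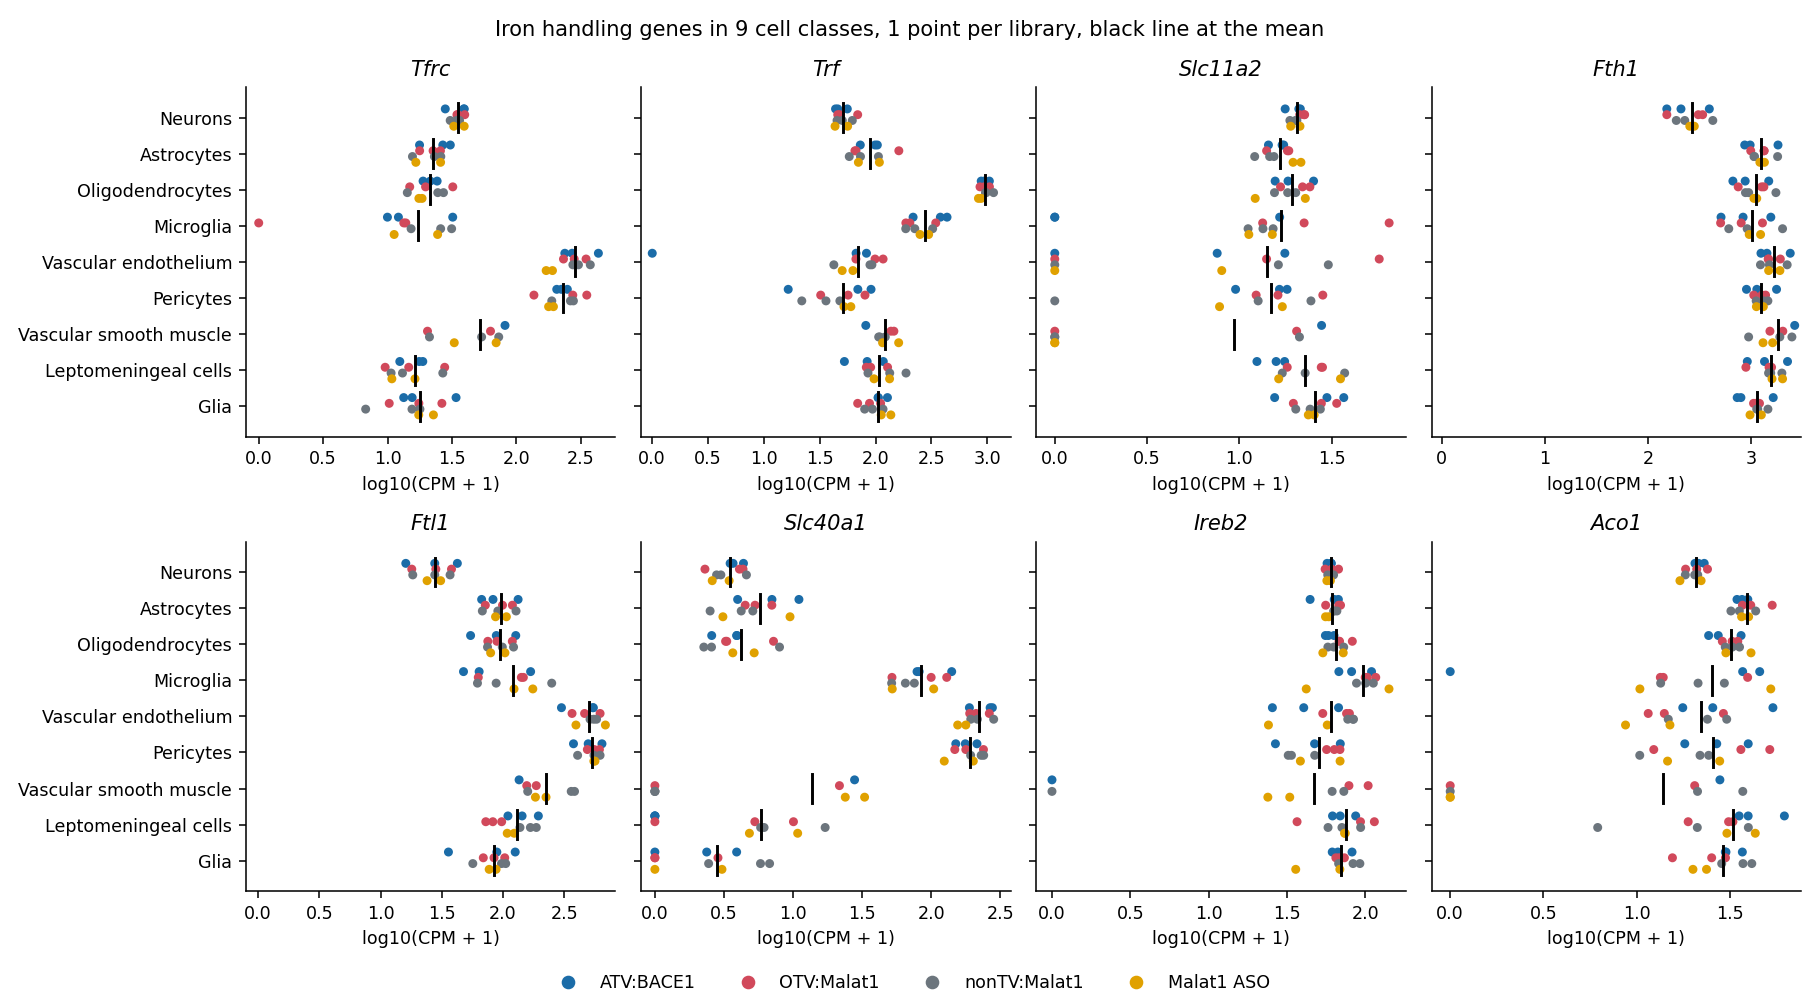
Level of each iron handling gene as log10(CPM + 1) on the horizontal axis in 9 cell classes, with 1 point per library coloured by dosing group and a black line at the mean. Tfrc and Slc40a1 are highest in vascular endothelium and in the pericyte class, which also holds endothelial RNA. Trf is highest in oligodendrocytes, Fth1 is lowest in neurons, and points of the 4 groups are mixed in most rows.

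Trf encodes transferrin, the iron carrier that binds the receptor. It was densest in oligodendrocytes, with 954 ± 92.2 CPM in oligodendrocytes (833 to 1137 CPM over the 11 libraries). Microglia followed at 276 ± 85.1 CPM, below oligodendrocytes in every library. The values were 121 ± 25.0 in vascular smooth muscle, 107 ± 36.5 in leptomeningeal cells, 103 ± 20.2 in glia, 88.5 ± 30.1 in astrocytes and 69.0 ± 31.7 in vascular endothelium. Neurons and pericytes were lowest, both at 50.3 CPM. Neurons, with 87.5% of all UMIs, held 48.7% of Trf UMIs, and oligodendrocytes, with 4.03% of all UMIs, held 42.7%. Of oligodendrocytes, 38.2% of nuclei kept a Trf UMI at 500 UMIs, against 10.9% in microglia and 2.65% in neurons.

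Outside oligodendrocytes, classes with more myelin RNA tended to have more Trf. The oligodendrocyte markers Mbp, Mobp and Mog together gave 6032 CPM in oligodendrocytes, and Trf UMIs equalled 15.8% of theirs. The same ratio was 17.9% in neurons, 20.2% in microglia, 14.1% in glia, 11.9% in vascular smooth muscle, 12.7% in both pericytes and vascular endothelium, 11.4% in leptomeningeal cells and 10.2% in astrocytes. Over the 10 clusters of the authors the ratio ran from 7.98% in cluster 4 to 22.4% in cluster 1, and single libraries ran from 0% to 35.5% in vascular endothelium and from 13.8% to 17.97% in oligodendrocytes. Between classes the marker sum varied from 279.6 to 6032 CPM while the pooled ratio lay between 10.2% and 20.2%. Whether Trf outside oligodendrocytes is RNA of those cells or oligodendrocyte RNA carried in droplets was not tested.

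**Figure D2:**
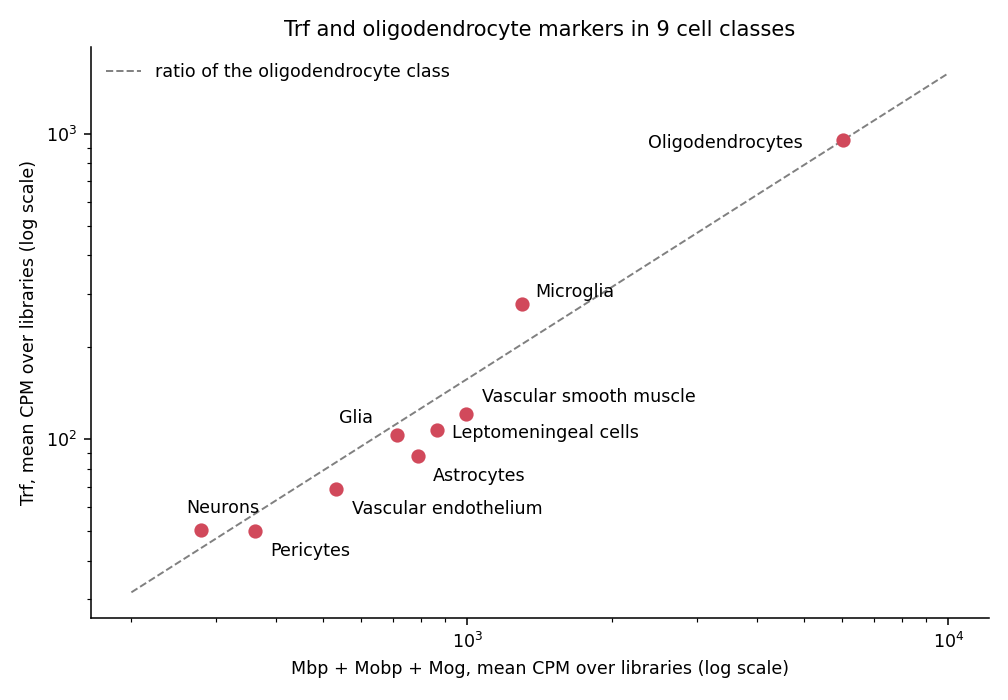
Mean Trf level against the mean summed level of the oligodendrocyte markers Mbp, Mobp and Mog in 9 classes, both in CPM over libraries on log axes. The dashed line has the oligodendrocyte ratio of 15.8%, and the classes from neurons (279.6 CPM of markers) to oligodendrocytes (6032 CPM) have pooled ratios of 10.2% to 20.2%.

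Slc11a2, the transporter that moves iron out of the endosome, was low and even. Its class means ran from 8.31 CPM in vascular smooth muscle (3 UMIs) to 24.8 ± 6.23 in glia, with 19.6 ± 1.53 in neurons. Neighbouring classes overlapped at every step of the order. In vascular endothelium, where Tfrc was highest, Slc11a2 stood at 13.1 ± 17.1 CPM from 19 UMIs, and 4 of 11 libraries had none.

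Per UMI of a class, ferritin transcripts were low in neurons and high in vessels, with different orders for the chains. Shares of nuclei without thinning did not set neurons apart from oligodendrocytes and microglia. An Fth1 UMI was found in 63.4%, 66.2% and 61.8% of these nuclei, at median depths of 3926, 947 and 883 UMIs. After thinning to equal depth the shares were 15.3%, 44.1% and 42.8%. In the remaining classes with means, the shares without thinning were 72.4% to 87.1%. Fth1, the heavy chain that oxidises iron, was at 266 ± 93.0 CPM in neurons and between 1026 and 1816 CPM in the other 8 classes. The Fth1 ranges of microglia, the next lowest class, and neurons did not overlap. In the 7 classes tested against neurons for overlap, Fth1 was above neurons in all 11 libraries of each, whereas 26.4% to 43.1% of the genes tested in a class did the same. Among those other classes neighbouring Fth1 ranges overlapped, from vascular smooth muscle (1816 ± 582) and vascular endothelium (1671 ± 395) through leptomeningeal cells (1564 ± 427), pericytes (1266 ± 233) and astrocytes (1265 ± 320) to glia (1144 ± 264), oligodendrocytes (1108 ± 329) and microglia (1026 ± 471).

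Ftl1, the light chain that helps form the iron core, was concentrated in vessels. It reached 533 ± 85.1 CPM in pericytes and 505 ± 115 in vascular endothelium, against 223 ± 95.6 in vascular smooth muscle and 83.8 to 129 CPM in the 5 other non-neuronal classes. In neurons it was 27.1 ± 8.65 CPM. Without thinning, an Ftl1 UMI was found in 11.7% of neurons, 10.1% of oligodendrocytes, 12.9% of microglia and 58.1% of pericytes. The number of Fth1 UMIs per Ftl1 UMI, compared between classes and not as a protein ratio, was 2.35 in pericytes and 3.44 in vascular endothelium. It was 9.86 in neurons, 12.2 in oligodendrocytes, 12.6 in leptomeningeal cells and 13.7 in astrocytes. Over the libraries the ratio ran from 2.05 to 2.77 in pericytes and from 11.3 to 16.2 in astrocytes. Vascular endothelium spanned 2.17 to 4.86, below every library of the neurons (7.80 to 11.8).

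Slc40a1 encodes ferroportin, the iron exporter. Vascular endothelium had 220 ± 44.7 CPM and pericytes 190 ± 39.0 (SD, n = 11), followed by microglia at 83.8 ± 30.8. Perivascular macrophages, too few for these means, had 20 UMIs and a pooled level of 144 CPM. Each of the 6 remaining classes was at or below 12.8 CPM, with 2.52 ± 0.778 in neurons and 1.84 ± 1.98 in glia. Microglia lay above neurons in every library, as 4 of the 5 members tested there and 38.9% of 3400 genes did. At 500 UMIs, 9.32% of endothelial and 8.18% of pericyte nuclei kept an Slc40a1 UMI, 4.34% of microglia and 0.139% of neurons. The receptor and the exporter thus shared their leading classes, but the pericyte class holds endothelial RNA and is not a separate case. Vascular smooth muscle, where the pericyte markers Pdgfrb, Abcc9 and Kcnj8 were highest, had 51.0 CPM of Tfrc and 12.8 of Slc40a1. There were 1.25 Tfrc UMIs per Slc40a1 UMI in vascular endothelium and 1.26 in pericytes, but 13.8 in neurons and 0.184 in microglia. The microglial value came from 21 Tfrc and 114 Slc40a1 UMIs.

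RNA of both iron regulatory proteins was counted in each of the 9 classes for which means are given. Ireb2 (iron regulatory protein 2, which is degraded when iron is plentiful) was highest in microglia at 95.8 ± 26.6 CPM and lowest in vascular smooth muscle at 46.1 ± 38.1, with 59.1 ± 3.36 in neurons. Aco1 (iron regulatory protein 1, which acts as an aconitase when it holds an iron-sulfur cluster) was highest in astrocytes at 38.0 ± 5.70 CPM and stood at 19.6 ± 2.10 in neurons, with no overlap between these 2 classes. For both genes the ranges of all neighbouring classes overlapped. The number of Ireb2 UMIs per Aco1 UMI was 3.01 in neurons (2.55 to 3.68 over libraries), 2.03 in oligodendrocytes and 1.59 in astrocytes (1.28 to 2.10). The neuronal and astrocyte ranges of this ratio did not overlap, and no test was made of it.

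Members that stood above neurons were counted by class, beside the share of all genes tested in that class. In pericytes 4 of 6 tested members (Tfrc, Fth1, Ftl1 and Slc40a1) had all 11 libraries above the highest neuronal library, beside 41.3% of all genes tested there. Oligodendrocytes had 4 of 7 (Trf, Fth1, Ftl1 and Aco1, beside 28.7%), and astrocytes 3 of 8 (Fth1, Ftl1 and Aco1, beside 28.4%). Leptomeningeal cells had 2 of 4 (Fth1 and Ftl1, beside 30.2%), and glia 1 of 7 (Fth1, beside 26.4%). Members too low in a class to be tested are not in these counts, so that genes high in a class are favoured. The counts describe only the tested members, and no count below neurons is given. Tfrc in leptomeningeal cells, which was too low to be tested there, had its highest library at 26.8 CPM, and the lowest neuronal library was at 27.1 CPM. The former, OTV:Malat1 replicate 5, rests on 3 Tfrc UMIs, and the class held 39 in all. These counts are too few to set the classes apart, and no share of all genes below neurons is given.

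Likeness of pattern was measured as Pearson's r of log2 CPM (prior count 2) over 97 class sums, which share libraries and depth, and it is a description. Nearest to Tfrc were Spock2 (r = 0.849), Esam (0.834) and Robo4 (0.833), Esam and Robo4 being endothelial genes. Trf was most like Rtn4 (0.824) and Mbp (0.803). For Slc40a1 these were Tal1 (0.862), Arpc2 (0.823) and Klhl6 (0.822). The order for Fth1 was Cox8a (0.872), Cst3 (0.844) and Dbi (0.842). Ftl1 followed the ribosomal protein and translation genes Rpl27a (0.955), Eif1 (0.954) and Rps4x (0.953). Slc11a2 was nearest to Gemin5 (0.741), Eri2 (0.704) and Dvl2 (0.651), Ireb2 to Tlk1 (0.887), Bbs9 (0.873) and Ube2q2 (0.846), and Aco1 to Car11 (0.768), Nt5c3b (0.742) and Hdac1 (0.739). Among the members themselves r was 0.72 for Fth1 and Ftl1, 0.61 for Ftl1 and Slc40a1 and 0.60 for Tfrc and Ftl1. It was 0.50 for Slc11a2 and Aco1, 0.50 for Tfrc and Slc40a1 and -0.47 for Tfrc and Trf. The other pairs lay between -0.32 and 0.26.

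Whether molecules that bind the TfR change these transcripts was asked first by setting the 6 libraries of the receptor binders (ATV:BACE1 and OTV:Malat1) against the 5 of the non-binders (nonTV:Malat1 and Malat1 ASO). These sets differ in more than binding. All non-binders received the Malat1 oligonucleotide while ATV:BACE1 carried none, and Malat1 ASO was given free at 2.5 mg/kg. The label of ATV:BACE1 also names BACE1, which the labels of the other groups do not. In a pooled change, binding and these differences cannot be told apart. Summed counts were fitted for all genes with edgeR's quasi-likelihood test, a pooled change being the mean of the binder groups minus the mean of the non-binder groups. Adjusted p-values are Benjamini-Hochberg values over the genes of a fit, and 0.05 was the threshold. None of the 8 iron handling genes passed in all nuclei, where 0% of 21409 genes did. Over 8 classes, none of the 51 tests of members that had enough counts passed, against 0.00128% of 77917 tests of all genes. By unadjusted p below 0.05, 0 members stood out in all nuclei and 0 of 51 over classes, against 0.939% and 2.13% of all tests. With the replicate block, which fits the replicate number as a term, these were 0 and 1 of 51 (Fth1 in leptomeningeal cells), against 6.17% and 5.23%. DESeq2 also called 0 members. By adjusted p, edgeR with the block called 0 members too, against 0% of genes in all nuclei and 0.0282% of tests over classes. Malat1, the RNA targeted by OTV:Malat1, was not called in all nuclei either for OTV:Malat1 against ATV:BACE1, with or without the block. With the block its log2 change there was -0.79 (SE 0.121, adjusted p = 0.297 by edgeR). In the class fits without the block, Malat1 was not called in neurons (-0.70) or in astrocytes (-1.56, adjusted p = 0.368 by edgeR) for the same contrast. The lack of a call, in all nuclei or in a class, therefore does not show that a transcript was unchanged.

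Tfrc was nearly level in all nuclei. ATV:BACE1 replicates 1, 4 and 5 had 37.6, 28.0 and 39.0 CPM, while 32.9, 35.9 and 38.7 CPM were found for OTV:Malat1. In nonTV:Malat1 they were 30.5, 32.8 and 37.1 CPM, and in Malat1 ASO replicates 1 and 5 they were 31.3 and 37.8. The groups overlapped throughout, and the lowest library was ATV:BACE1 replicate 4. Binders had a mean of 35.3 ± 4.26 CPM (SD, n = 6) and non-binders 33.9 ± 3.36 (SD, n = 5), and the exact two-sided permutation test of log2 CPM gave p = 0.584, where the smallest possible is 0.00433. This test exchanges libraries freely and takes no account of the replicate number. The fitted log2 change was 0.04 (SE 0.085, 95% interval -0.15 to 0.23, adjusted p = 1.00). That fit has no term for the replicate number either. Over the alternatives that kept all libraries, the replicate block among them, the change ran from 0.037 to 0.056. Within replicate numbers 1, 4 and 5 the log2 difference was 0.19, -0.05 and 0.05. In all nuclei, a change per nucleus and a change in the share of a class cannot be told apart.

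In vascular endothelium, the class with the highest Tfrc, ATV:BACE1, OTV:Malat1 and nonTV:Malat1 overlapped, and Malat1 ASO lay below them. ATV:BACE1 replicates 1, 4 and 5 had 237, 433 and 270 CPM, and OTV:Malat1 had 281, 347 and 231. nonTV:Malat1 had 274, 303 and 374 CPM, and the pair of Malat1 ASO libraries had 190 and 169, the lowest of the 11. Malat1 ASO was tested only as part of the non-binders. Each value rests on 22 to 56 Tfrc UMIs. The fitted log2 change of binders was 0.29 (SE 0.207, 95% interval -0.13 to 0.72, adjusted p = 1.00), and the same exact permutation test, again without the replicate number, gave p = 0.394 for 300 ± 77.2 CPM (SD, n = 6) against 262 ± 83.9 (SD, n = 5). Against nonTV:Malat1 alone the direction was the opposite, with log2 changes of -0.18 (SE 0.265) for OTV:Malat1 and -0.06 (SE 0.268) for ATV:BACE1, and the low Malat1 ASO libraries enter only the pooled comparison. The interval of the pooled change includes both 0 and a rise of 0.72 on the log2 scale. It comes from the fit without the replicate block. Over the alternatives that kept all libraries, the block among them, the pooled change ran from 0.19 to 0.31.

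**Figure D3:**
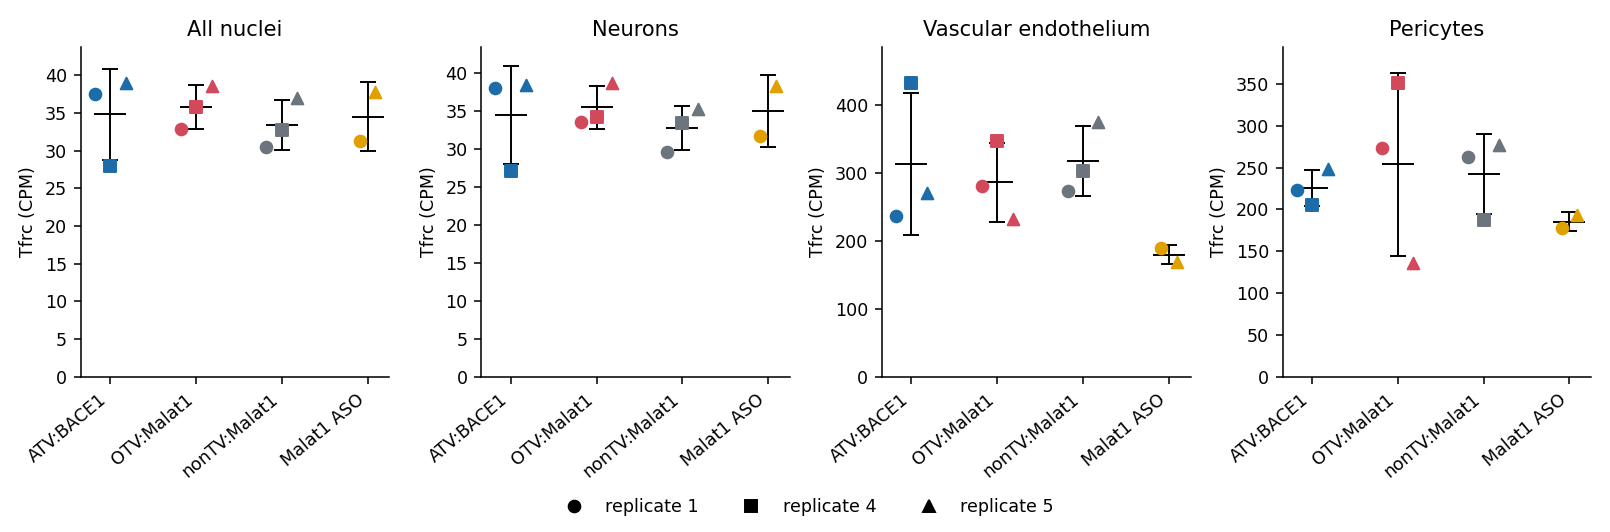
Tfrc in CPM (vertical axis, from 0) for each library of the 4 dosing groups in all nuclei, neurons, vascular endothelium and pericytes, with the replicate number as the symbol and bars at the mean ± SD (n = 3, 3, 3 and 2). Groups overlap in all nuclei (28.0 to 39.0 CPM), and in vascular endothelium the pair of Malat1 ASO libraries is lowest at 169 and 190 CPM.

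In pericytes, ATV:BACE1 replicates 1, 4 and 5 had 223, 205 and 248 CPM of Tfrc, while OTV:Malat1 had 273, 351 and 136. It was at 262, 187 and 277 CPM in nonTV:Malat1 and at 177 and 193 in Malat1 ASO. OTV:Malat1 held both the highest and the lowest library, the latter from 12 UMIs. The log2 change of binders was 0.20 (95% interval -0.18 to 0.57, adjusted p = 1.00). Haemoglobin RNA stood apart in these classes. Hbb-bs, a red cell gene, had 175 UMIs in vascular endothelium and 50 in pericytes of ATV:BACE1 replicate 1, and 33 and 170 in those of OTV:Malat1 replicate 5. The other binder libraries had at most 1 in either class, and of the non-binders nonTV:Malat1 replicate 5 had 32 and 1. In pericytes the log2 change of Hbb-bs in binders was 7.13 (SE 1.83, adjusted p = 0.659), and with the replicate block it passed at 7.46 (SE 1.26, adjusted p = 0.00342), as did Hba-a1 at 5.90 (adjusted p = 0.023). In vascular endothelium Hbb-bs did not pass in either fit (4.53, adjusted p = 0.999, and 4.85, adjusted p = 0.661 with the block), but it passed without the filter on low counts (4.48, adjusted p = 2.72e-13), as it did in pericytes (7.07, adjusted p = 5.65e-42). DESeq2 gave no p-value for Hbb-bs in either class, and its unadjusted p for Hba-a1 in pericytes was 0.0644. Nearly all binder counts came from ATV:BACE1 replicate 1 and OTV:Malat1 replicate 5. These p-values therefore do not measure a change shared by the binder libraries. The part of haemoglobin RNA in the Tfrc and ferritin values was not tested.

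In neurons the Tfrc change was 0.02 (95% interval -0.16 to 0.21), the narrowest of any class. It was 0.13 in astrocytes (-0.29 to 0.56), 0.07 in oligodendrocytes (-0.39 to 0.54) and 0.18 in glia (-0.65 to 1.01). All 7 estimates for Tfrc, all nuclei included, were above 0, but these share libraries and are not separate evidence. Tfrc had too few counts for the fit in microglia and leptomeningeal cells. Vascular smooth muscle could be tested in 1 contrast only, and perivascular macrophages reached 20 nuclei in only 1 library.

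Without the block, the other members had intervals that included 0 in every class tested. In all nuclei Slc11a2 changed by 0.07 (95% interval -0.07 to 0.21), Trf by -0.05 (-0.18 to 0.09), Slc40a1 by 0.02 (-0.37 to 0.40), Ireb2 by 0.01 (-0.17 to 0.20) and Aco1 by 0.07 (-0.11 to 0.26), on the log2 scale. Fth1 and Ftl1 had the widest intervals, -0.18 (-0.78 to 0.42) and -0.10 (-0.63 to 0.42). Fth1 estimates were below 0 in all nuclei and the 8 classes, from -0.31 in microglia to -0.01 in vascular endothelium, in fits that share libraries. With the replicate block the Fth1 value in all nuclei was -0.095 (-0.36 to 0.17), those in vascular endothelium (0.04) and pericytes (0.05) were above 0, and the one in leptomeningeal cells was -0.26 (-0.49 to -0.02, adjusted p = 0.713). In vascular endothelium Slc40a1 changed by 0.23 (-0.19 to 0.65). Over the 51 class tests the median log2 change was -0.001, with 25 above 0. The lowest was Trf in leptomeningeal cells (-0.44, -0.94 to 0.06) and the highest Slc40a1 in microglia (0.44, -0.25 to 1.13).

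**Figure D4:**
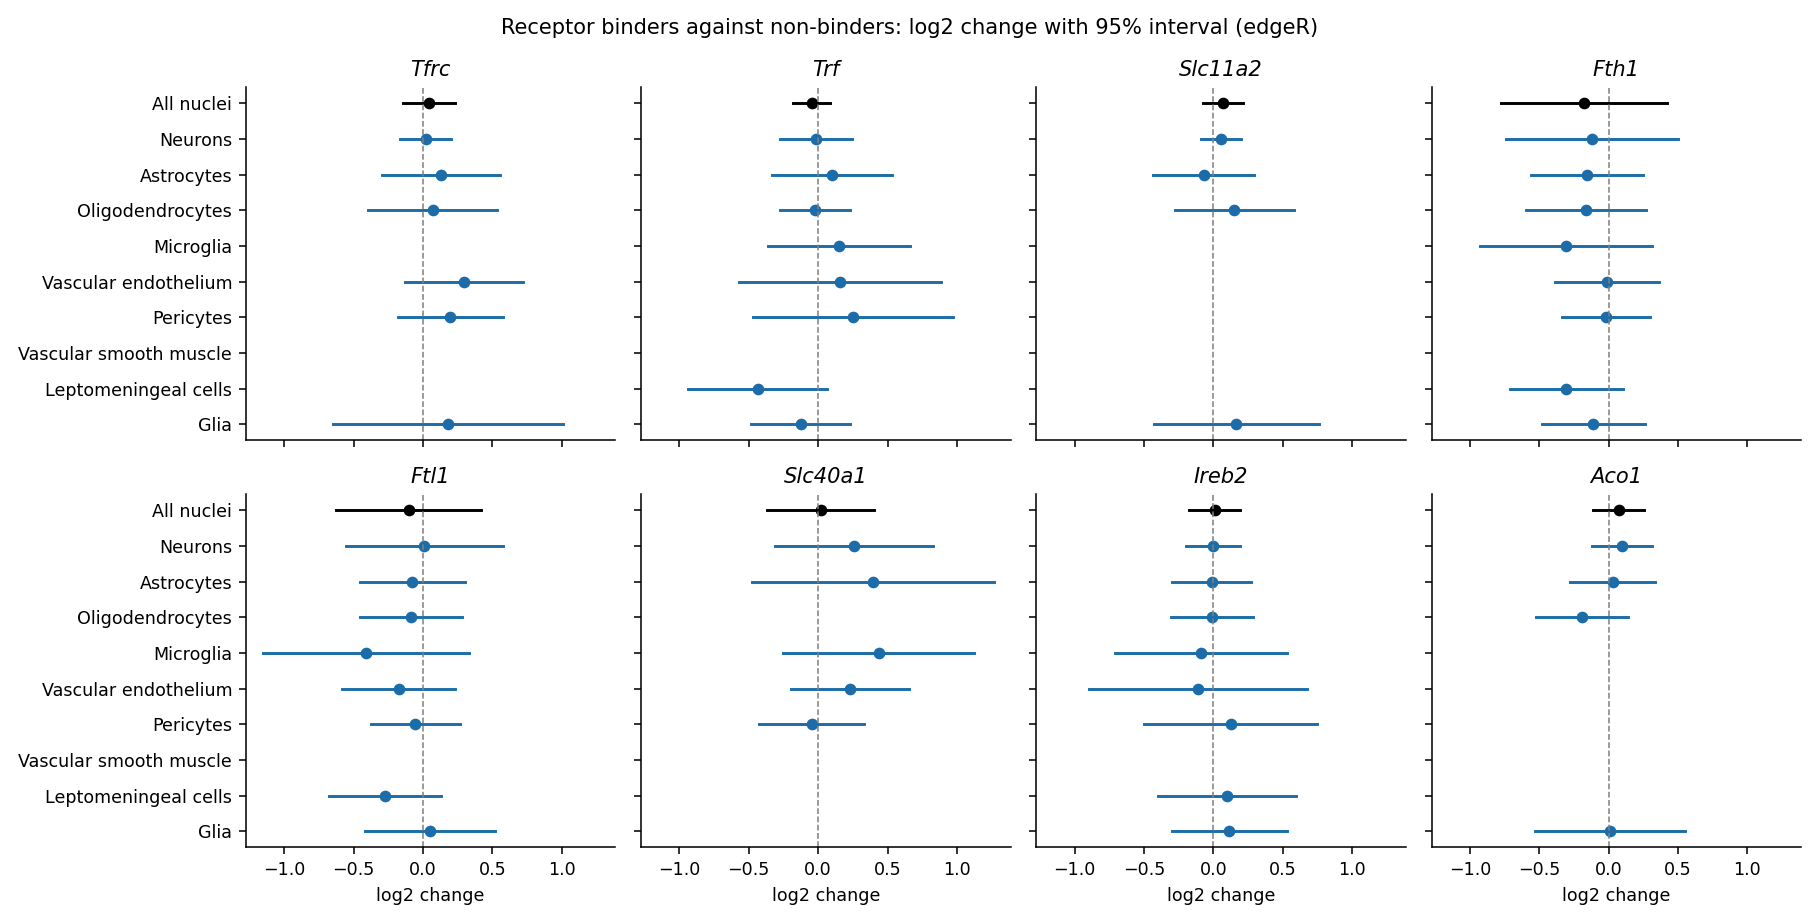
Log2 change of each iron handling gene in receptor binders against non-binders (horizontal axis) with its 95% interval from edgeR, for all nuclei in black and for the tested classes in blue. The fits are those without the replicate block. Rows without a point could not be tested, and the dashed line at 0 lies within each interval.

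The separate comparisons of dosing groups, which share libraries with each other and with the pooled one, called no member either. For OTV:Malat1 against nonTV:Malat1, 0 of 8 members passed in all nuclei (0% of all genes) and 0 of 53 tests over 9 classes (0.00252% of tests of all genes). In all nuclei the largest estimate there was Fth1 at -0.22 (SE 0.363), and Tfrc was at 0.07 (SE 0.113). Slc11a2 was at 0.15 (SE 0.0866, adjusted p = 1.00). For ATV:BACE1 against nonTV:Malat1 the counts were again 0 of 8 (0%) and 0 of 51 (0%), with Tfrc at 0.07 (SE 0.113). For OTV:Malat1 against ATV:BACE1, molecules that both bind the receptor, they were 0 of 8 (0%) and 0 of 51 (0.00513%), with Tfrc at 0.0013 (SE 0.113). With the replicate block the members' counts were again 0, beside 0.0239%, 0.0257% and 0.0128% of all tests over classes in the same order of comparisons.

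Without the block, 2 of these member tests had an unadjusted p below 0.05, and both concerned Ftl1 in leptomeningeal cells. With it there were 7, namely these 2 with Fth1 in leptomeningeal cells and microglia and Slc11a2 in all nuclei for OTV:Malat1 against nonTV:Malat1, Trf in leptomeningeal cells for ATV:BACE1 against nonTV:Malat1, and Trf in microglia for OTV:Malat1 against ATV:BACE1. For Ftl1 in leptomeningeal cells, OTV:Malat1 replicates 1, 4 and 5 had 96.6, 81.7 and 71.4 CPM, while nonTV:Malat1 had 167, 137 and 186. ATV:BACE1 had 142, 109 and 194 CPM, and Malat1 ASO had 107 and 123. The 3 OTV:Malat1 libraries were the lowest of the 11, from 45, 18 and 8 UMIs. The log2 change was -0.92 (SE 0.261) against nonTV:Malat1 and -0.78 (SE 0.269) against ATV:BACE1. Neither passed the adjusted threshold (adjusted p = 1.00 for both; 0.453 and 0.996 with the replicate block). In that class 0% of 6529 genes were called in either comparison. Over classes, 1.74% of all gene tests of OTV:Malat1 against nonTV:Malat1 had an unadjusted p below 0.05, beside 1 of 53 for the members, and with the block 3.78%, beside 3 of 53. Without the block the share for OTV:Malat1 against ATV:BACE1 was 2.27%, beside 1 of 51. With the block the share over classes was 4.44% for ATV:BACE1 against nonTV:Malat1, beside 1 of 51, and 4.49% for OTV:Malat1 against ATV:BACE1, beside 2 of 51. In all nuclei it was 3.97% for OTV:Malat1 against nonTV:Malat1, beside 1 of 8.

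Ferritin RNA was higher in replicate 1 than in replicate 4 in each dosing group that had both. Fth1 in all nuclei was at 581, 457, 667 and 393 CPM in replicate 1 of ATV:BACE1, OTV:Malat1, nonTV:Malat1 and Malat1 ASO. The 3 libraries of replicate 4 had 223, 261 and 299 CPM, and the 4 of replicate 5 had 279, 407, 318 and 389. Every replicate 1 library was above every replicate 4 library. Ftl1 did the same, at 48.9 ± 11.3 CPM (SD, n = 4), 25.6 ± 3.72 (SD, n = 3) and 40.7 ± 3.46 (SD, n = 4) for numbers 1, 4 and 5. Of the 8 members, 3 (Fth1, Ftl1 and Trf) had replicate 1 wholly above replicate 4, as had 23% of the 21409 genes. Tfrc was highest in number 5, at 38.1 ± 0.888 CPM, against 32.2 ± 3.98 in number 4 and 33.1 ± 3.18 in number 1. Tfrc and Ftl1 had replicate 5 wholly above replicate 4, as had 24.3% of genes. Ireb2 alone had replicate 1 (59.6 to 62.6 CPM) wholly above replicate 5 (55.1 to 57.4), as had 12% of genes. Median mitochondrial shares per library were 0.269% to 0.291% in number 1, 0.244% to 0.274% in number 4 and 0.259% to 0.273% in number 5, and their part was not tested.

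**Figure D5:**
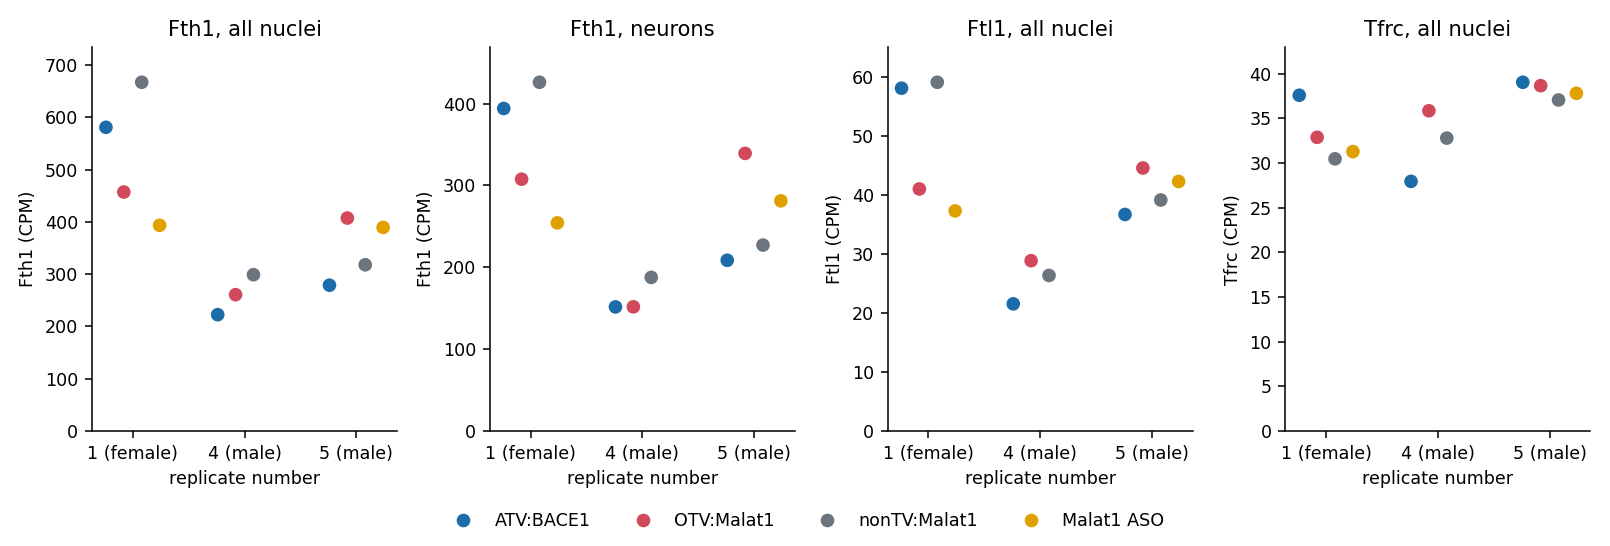
Fth1 in all nuclei and in neurons, and Ftl1 and Tfrc in all nuclei, in CPM (vertical axes from 0) by replicate number, 1 point per library coloured by dosing group. The replicate 1 libraries of Fth1 in all nuclei (393 to 667 CPM) sit above those of replicate 4 (223 to 299 CPM) whatever the group.

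The levels of Tfrc were set beside the change of Malat1, the RNA that OTV:Malat1 targets, in OTV:Malat1 against ATV:BACE1. The Malat1 estimate was below 0 with its 95% interval in each of the 8 classes, and by edgeR's p adjusted over all genes Malat1 fell in 3 of them. With the replicate block it fell in 6, neurons, astrocytes and pericytes being added. In oligodendrocytes its log2 change was -2.44 (95% interval -2.85 to -2.03, adjusted p = 2.87e-06), and Tfrc was at 20.2 CPM. In vascular endothelium, first in Tfrc, it fell by 1.84 (-2.21 to -1.47, adjusted p = 2.83e-07), and in microglia, at 16.3 CPM of Tfrc, by 0.93 (-1.21 to -0.66, adjusted p = 0.00188). The estimates that did not pass without the block were -1.56 (-2.14 to -0.98) in astrocytes, -0.81 (-1.12 to -0.49) in pericytes, -0.70 (-0.99 to -0.41) in neurons, -0.51 (-0.96 to -0.06) in glia and -0.33 (-0.56 to -0.09) in leptomeningeal cells. With the block the adjusted p was 3.59e-07 in astrocytes, 0.00376 in pericytes and 0.0476 in neurons. The pericyte class, second in Tfrc and holding endothelial RNA, had a smaller estimated fall of Malat1 than astrocytes, oligodendrocytes or microglia. Over the 8 classes Pearson's r of the signed Malat1 log2 change with log2 Tfrc was -0.20 and Spearman's rho -0.45. A negative value means a larger fall of Malat1 where Tfrc was higher. Both are a description of points that share libraries.

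No gene of the wider pathway passed under dosing either. Lists for uptake and endosomal handling, storage and ferritin turnover, export and ferroxidases, heme, mitochondrial iron and iron-sulfur clusters, and regulation held 81 genes, of which 80 were in the table and 76 had enough counts in all nuclei. None passed in receptor binders against non-binders in either direction, in all nuclei (0 of 76) or over classes (0 of 370 tests), and none did in any other contrast, with or without the replicate block. At an unadjusted p below 0.05 there were 0 in all nuclei and 7 of 370 over classes, beside 0.939% and 2.13% of all gene tests. With the block there were 1 of 76 and 12 of 370, beside 6.17% and 5.23%. By list, the median log2 change of binders in all nuclei was -0.01 for 20 uptake genes, 0.003 for 5 storage genes, 0.04 for 5 export genes, -0.01 for 20 heme genes, -0.05 for 14 mitochondrial genes and -0.03 for 12 regulatory genes.

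Across classes, the most abundant genes of these lists had patterns of their own. Picalm, which helps form the clathrin coats that carry the receptor inward, was highest in microglia at 688 ± 146 CPM, with 235 ± 72.1 in vascular endothelium. Snx3, which helps return the receptor from endosomes, followed Tfrc in being highest in vascular endothelium (274 ± 67.9) and pericytes (267 ± 68.2). App, listed for its link to ferroportin at the membrane, was highest in vascular endothelium at 1167 ± 111 CPM. The ferroxidase Cp (ceruloplasmin), which oxidises exported iron, was highest in leptomeningeal cells (437 ± 83.8) and vascular smooth muscle (320 ± 144), and it stood at 171 ± 39.5 in vascular endothelium. Herc2, a ubiquitin ligase that acts on the ferritin receptor Ncoa4, was highest in microglia (350 ± 48.6), and the iron chaperone Pcbp2 was even, at 114 to 182 CPM. Lrp1, a receptor for heme bound to hemopexin, was highest in microglia (246 ± 74.8). Hmox2 (heme oxygenase), Cdc42bpa, whose RNA has an iron-responsive element, and Neo1, a co-receptor in hepcidin signalling, were highest in oligodendrocytes at 127 ± 19.8, 908 ± 95.4 and 326 ± 35.0 CPM. The iron-sulfur cluster enzyme Nfs1 was highest in astrocytes at 58.8 ± 10.4 CPM. Of 67 pathway genes with at least 500 UMIs, 17 (25.4%) had their highest class mean in vascular endothelium and 1 (1.49%) in neurons, beside 14.4% of all 16736 genes with that many UMIs in either class.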

How the data were processed

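Single-nucleus RNA was measured in 11 libraries. The authors deposited a matrix of UMI counts with no normalization per the file headers, and its nucleus sums equalled the deposited totals in 110304 nuclei. The authors also deposited the percent of mitochondrial UMIs, class, cluster, doublet call and batch, per the file headers, and a class prediction score and doublet score per nucleus as a fraction of 1. The submitters' processing notes name Cell Ranger 5.0.0, Seurat 4 and mm10, and no source used here gives the filters before deposition. Counts were summed over all nuclei or per class of a library (at least 20 nuclei, 2 such libraries per group) and tested with edgeR 4.0.16 (TMM, filterByExpr, glmQLFit and glmQLFTest, all 4 groups in 1 fit) in R 4.3.3, with Benjamini-Hochberg adjustment over all genes at 0.05. Alternatives were DESeq2 1.42.0, a replicate block, total counts without TMM, no filter, Malat1 left out, no called doublets, no nuclei under 1000 UMIs, at least 50 nuclei and leaving out each library.

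The replicate numbers pair the libraries by the deposited batch column. Deviations from group means correlated at r 0.374 to 0.836 for the same number (15 pairs) and at -0.812 to 0.259 for different numbers (30 pairs). Deviations within a group sum to 0, so high values for the same number force low ones for different numbers. The ranges are not separate evidence. Nothing in the labels says whether a library is 1 mouse, so p-values measure the spread between these libraries. UTRs were built from GENCODE M21 (GRCm38, the same assembly as mm10). Shares were taken from nuclei thinned without replacement to 500 UMIs, leaving out 3 shallower nuclei. Plots and descriptions used pandas 2.3.3, scipy 1.17.1, matplotlib 3.10.9 and numpy 2.4.6 under Python 3.11.15. Named were the 8 members, any called gene of the pathway lists, the 2 most abundant genes of each list, the 3 genes most like each member, and Malat1 by class; Ttr, Cldn5, Flt1, Pdgfrb, Abcc9, Kcnj8, Hbb-bs and Hba-a1 come from fixed marker lists. Members and lists were chosen with earlier results of these data known. A few genes that these rules name are not reported here.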

Additional observations from a re-analysis of the deposited data

Results flagged for a closer look

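Perivascular macrophages (125 nuclei, 138655 UMIs in all libraries together) had too few nuclei for the comparisons, yet 6 members had more than 3 UMIs there. Pooled levels, with exact 95% Poisson intervals that cover counting error only, were 1075 CPM for Fth1 (909 to 1262), 216 for Trf (146 to 309), 144 for Slc40a1 (88.1 to 223), 101 for Ireb2 (55.2 to 169), 93.8 for Ftl1 (49.9 to 160) and 57.7 for Aco1 (24.9 to 114). Tfrc had 1 UMI, or 7.21 CPM (0.183 to 40.2), and Slc11a2 had none, with an exact upper bound of 26.6 CPM.

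On the CPM scale, some differences between binder libraries and the non-binder mean of the same replicate number had opposite signs in 2 replicate numbers. The sign held for each binder library, and these differences were not tested. Tfrc in vascular endothelium differed by a mean of 26.9 CPM in number 1 and 87.2 CPM in number 4, but by -21.2 CPM in number 5. In number 5 both binder libraries (270 and 231 CPM) lay between nonTV:Malat1 (374) and Malat1 ASO (169), and number 4 has no Malat1 ASO library. The non-binder mean in number 5 was 272 CPM, so that ATV:BACE1 at 270 CPM was almost equal to it. On the log2 scale the mean difference in number 5 was -0.011, and a reversal of Tfrc is not shown. Trf in all nuclei differed by 5.08 CPM in number 1 and -4.55 CPM in number 4. Slc40a1 in all nuclei differed by -0.517 CPM in number 1 and 1.65 CPM in number 4.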

How the results depend on the processing

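The count of members called was 0 in each of the 4 contrasts, in all nuclei and over classes, under every alternative that was run. Over all settings together there were 4753 member tests, and the lowest adjusted p was 0.453, for Ftl1 in leptomeningeal cells with the replicate block. The 50-nucleus minimum concerns classes only. With the replicate block no call of a member changed, while the uncalled log2 changes of binders in all nuclei crossed 0 for Ftl1 (0.0069) and Ireb2 (-0.023). Leaving out each library moved uncalled estimates in all nuclei across 0: Tfrc from -0.00125 to 0.088, Fth1 from -0.41 to 0.056, Slc40a1 from -0.11 to 0.12, Ftl1 from -0.29 to 0.070 and Ireb2 from -0.035 to 0.061. Tfrc in neurons ran from -0.021 to 0.075. Tfrc in vascular endothelium stayed above 0, from 0.17 without ATV:BACE1 replicate 4 to 0.37 without ATV:BACE1 replicate 1, and pericytes ran from 0.05 to 0.30. The cause was not tested. Depth limits Tfrc in vascular endothelium and pericytes to 12 to 90 UMIs per library and class.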
